A study of Rattus norvegicus with 35 samples.

Results

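The genes described here are 9 members of hepatic gluconeogenesis and glucose handling, followed in rat liver across 6 dose groups of the brominated flame-retardant ester TBB. They were chosen by name: Pck1, G6pc1, Fbp1, Tat, Igfbp1, Irs2, Ppargc1a, Pklr and Slc2a2, each read from the array probe set that carried its symbol alone and had the highest mean over all arrays. Of the 9, 8 had such a probe set, out of 14217 genes that did. G6pc1 had none, since its 4 probe sets each carried several symbols, and it has no value here. Male Harlan Sprague Dawley rats on NTP-2000 diet ad libitum entered the study at 7 weeks of age, and whether food was withheld before necropsy is not given in the sources used here. TBB in corn oil was gavaged on 5 consecutive days in 5 ml/kg, and the left liver lobe was taken 1 day after the last dose. There were 5 arrays from rats given corn oil alone (vehicle) and 6 arrays each at 0.05, 0.55, 5.50, 55 and 550 mg/kg.

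Gluconeogenesis is the making of glucose from lactate, amino acids and glycerol, and the liver is its main site. In fasting, glucagon acting through cyclic AMP, and glucocorticoids, raise the transcription of its enzymes, while insulin after a meal lowers it. In the fed liver the transcription of glycolytic and fat-making enzymes is raised by insulin and by glucose itself. Pck1 (cytosolic phosphoenolpyruvate carboxykinase) and Fbp1 (fructose-bisphosphatase) are enzymes of gluconeogenesis, and Tat (tyrosine aminotransferase) feeds amino acid carbon into it. Ppargc1a is a transcriptional coactivator that rises in fasting. Igfbp1 (a secreted binder of insulin-like growth factors) and Irs2 (an adaptor of the insulin receptor) are genes that insulin lowers. Pklr, the liver pyruvate kinase of glycolysis, is the fed-type member, and Slc2a2 encodes the glucose transporter of the hepatocyte membrane.

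The DNA before 4 of these genes is printed because it carries the textbook elements through which fasting and feeding signals act, and the results below describe the RNA of the same genes. Each line is a RefSeq window of 300 bases in the GRCr8 build, 250 before and 50 after the annotated start, on the plus strand. Capitals mark the motif found. The Pck1 window is chr3:182348322-182348621, the Ppargc1a window chr14:63634058-63634357, the Igfbp1 window chr14:86261027-86261326 and the Pklr window chr2:176841014-176841313.
Pck1: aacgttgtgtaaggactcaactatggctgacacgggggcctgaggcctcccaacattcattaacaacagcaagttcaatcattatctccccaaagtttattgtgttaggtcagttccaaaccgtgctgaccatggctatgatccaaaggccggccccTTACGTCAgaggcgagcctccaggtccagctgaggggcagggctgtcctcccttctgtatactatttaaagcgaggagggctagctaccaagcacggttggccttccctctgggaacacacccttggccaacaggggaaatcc
Ppargc1a: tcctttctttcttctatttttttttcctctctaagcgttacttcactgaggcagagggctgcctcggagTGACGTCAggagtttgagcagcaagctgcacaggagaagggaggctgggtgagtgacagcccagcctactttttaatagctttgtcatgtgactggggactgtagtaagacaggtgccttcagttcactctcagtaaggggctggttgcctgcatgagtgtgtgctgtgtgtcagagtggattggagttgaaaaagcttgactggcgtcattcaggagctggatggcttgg
Igfbp1: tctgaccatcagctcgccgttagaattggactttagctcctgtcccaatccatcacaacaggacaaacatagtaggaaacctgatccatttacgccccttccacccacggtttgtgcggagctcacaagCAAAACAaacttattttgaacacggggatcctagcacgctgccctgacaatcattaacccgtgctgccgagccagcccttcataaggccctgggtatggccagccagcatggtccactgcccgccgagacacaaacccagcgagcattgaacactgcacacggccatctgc
Pklr: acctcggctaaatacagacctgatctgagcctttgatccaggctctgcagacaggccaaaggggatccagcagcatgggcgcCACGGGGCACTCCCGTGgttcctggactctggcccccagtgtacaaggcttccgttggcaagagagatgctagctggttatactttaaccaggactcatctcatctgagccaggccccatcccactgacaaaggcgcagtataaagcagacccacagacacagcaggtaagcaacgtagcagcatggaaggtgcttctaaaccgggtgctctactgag

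In these windows Pck1 held the cyclic AMP type element TTACGTCA from 93 to 86 bases before its start, and Ppargc1a held the full cyclic AMP element TGACGTCA from 181 to 174 bases before. Igfbp1 held CAAAACA, a core of the insulin response element, from 121 to 115 bases before its start. Pklr held a match to the carbohydrate response element, through which glucose acts, from 168 to 152 bases before. Both strands were searched in 33469 windows of the same length. TTACGTCA was in 0.807% of them, TGACGTCA in 1.83%, CAAAACA in 6.28% and the carbohydrate response element in 0.0329%. Of the 9 genes 8 had a window, all but Irs2. Each of TTACGTCA, TGACGTCA and the carbohydrate response element was in 1 of these 8 windows, and CAAAACA was also in that of G6pc1. The motifs were picked after the windows had been seen. The letters are a description and say nothing of factors bound in these livers.

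Values are log2 expression per probe set, and 31042 probe sets were tested. Any pair of arrays correlated at 0.988 to 0.996 over these. Whether every array stands for a separate rat is not labelled, so the p-values refer to array-to-array spread, part of which may be technical. The hepatocyte markers Alb, Ttr and Cps1 were among the bright probe sets (means of 14.62, 14.07 and 13.15), and of the 8 measured hepatocyte markers 1, Apoa1, changed at 550 mg/kg (-0.51 ± 0.06, limma adjusted p = 7.3e-06). The mean of the 8, Apoa1 included, ran from 13.56 to 13.67 in the 550 mg/kg arrays and from 13.67 to 13.71 in the vehicle arrays. Of the 8, 3 had a positive and 5 a negative difference, with a median of -0.04. The mean of the 4 measured Kupffer cell markers ran from 7.55 to 8.23 at 550 mg/kg and from 7.97 to 8.38 in vehicle, and that of 2 red cell markers from 8.78 to 9.38 at 550 mg/kg and from 9.29 to 9.99 in vehicle, with no call in either list. The 4 Kupffer cell and 2 red cell markers all had negative differences at 550 mg/kg (medians -0.26 and -0.50). None of the other 7 marker lists held a call. Among these, all 5 endothelial and all 3 lymphocyte markers had negative differences at 550 mg/kg (medians -0.08 and -0.11). The remaining lists held both signs. The part of these shifts in the results at 550 mg/kg was not tested.

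No glucose handling gene changed past the threshold at any dose. In limma with Benjamini-Hochberg adjustment over all probe sets, 0 of 8 members had an adjusted p under 0.05 at 550 mg/kg against vehicle, where 0.499% of all probe sets passed. Without adjustment 1 of 8 had p under 0.05, against 8.67% of all probe sets. The count was 0 of 8 at 55 mg/kg (all probe sets 0.00644%), and 0 of 8 at 5.50, 0.55 and 0.05 mg/kg, where 0% of all probe sets passed at each. At these 4 doses 0 of 8 also passed without adjustment, against 4.2%, 4.95%, 3.86% and 6.05% of all probe sets from 55 mg/kg down to 0.05 mg/kg. The lowest adjusted p of a member against vehicle was 0.325, at 550 mg/kg. In whole liver, fewer cells of a type and less RNA per cell cannot be told apart.

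**Figure D1:**
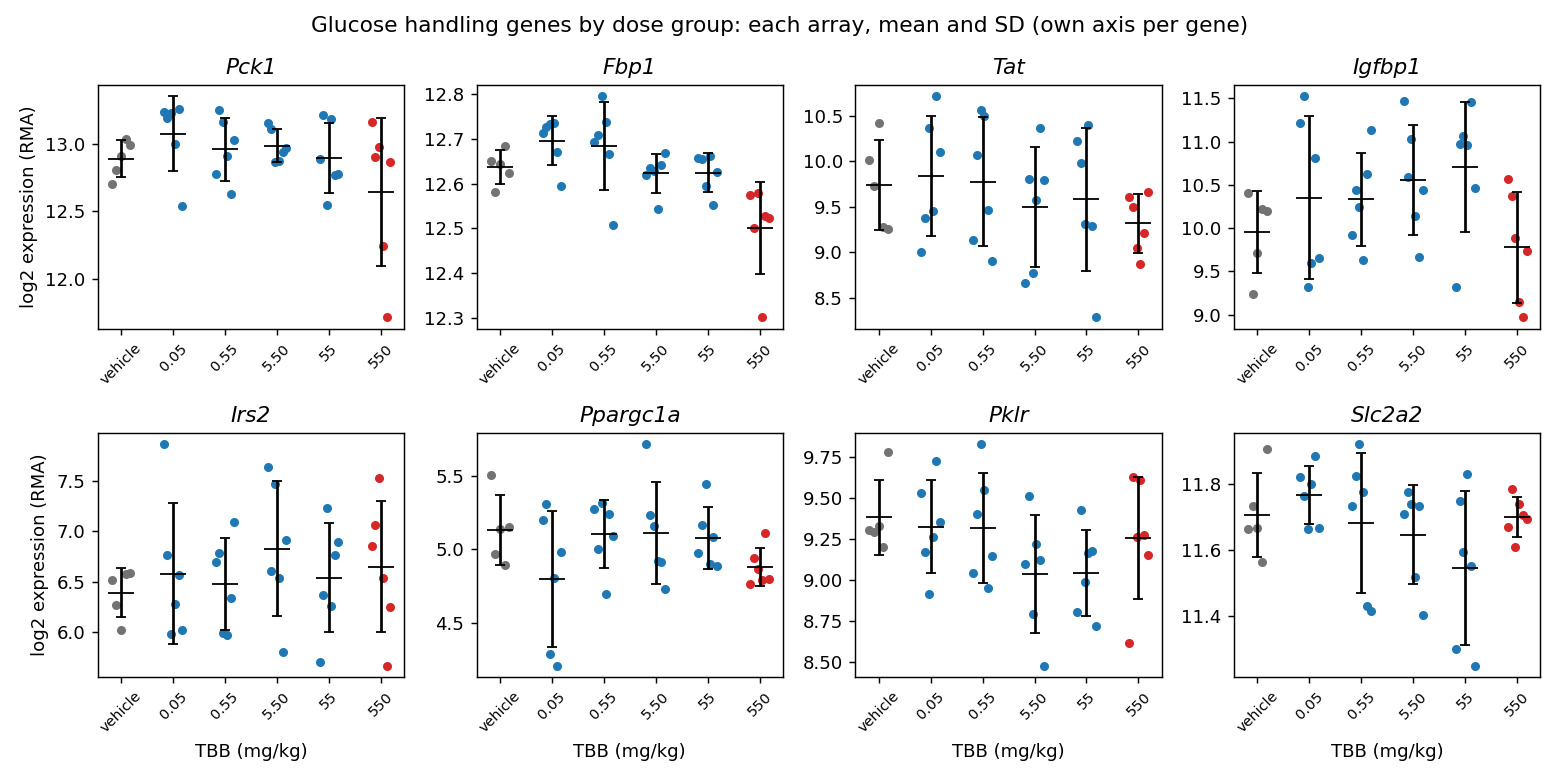
Log2 expression of the 8 measured genes (vertical axes, 1 scale per gene) in vehicle and at 0.05, 0.55, 5.50, 55 and 550 mg/kg TBB (horizontal axes). Points are arrays, bars the mean and SD (n = 5 for vehicle, 6 at each dose). Each dose group overlaps vehicle for every gene except Fbp1 at 550 mg/kg, where all 6 arrays lie below the 5 vehicle arrays.

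Of the members, Fbp1 had the smallest p at the highest dose, with lower values there. It ran from 12.30 through a median of 12.53 to 12.58 in the 550 mg/kg arrays, against 12.65, 12.58, 12.64, 12.68 and 12.62 in the vehicle arrays. All 6 arrays at 550 mg/kg were below all 5 vehicle arrays, which 0.548% of all probe sets also showed (0.796% were higher without overlap). The difference was small, -0.14 ± 0.05 (SE) on the log2 scale or 0.910 of the vehicle level (95% interval 0.849 to 0.975), and it did not pass (limma adjusted p = 0.325, unadjusted p = 0.00896). From vehicle upward the group means were 12.64, 12.70, 12.68, 12.62, 12.62 and 12.50. The 4 lower doses were within 0.06 of the vehicle mean, and the 550 mg/kg mean was the lowest of the 6. Without 550 mg/kg replicate 4, the lowest array, the difference at 550 mg/kg was -0.10 (limma adjusted p = 0.594) on the log2 scale.

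Pck1, the enzyme of the committed step, spread widely at the highest dose. It ran from 11.71 through a median of 12.88 to 13.16 at 550 mg/kg, against 12.70, 12.81, 12.91, 13.03 and 12.99 in vehicle. The 550 mg/kg replicates 5 and 4 were low, at 11.71 and 12.24, and the other 4 lay between 12.86 and 13.16 in the range of the vehicle arrays or above it. The SD was 0.55 at 550 mg/kg and 0.14 in vehicle, and 0.12 to 0.28 at the other doses. The difference of -0.25 ± 0.17 did not pass (limma adjusted p = 0.756), and its 95% interval ran from 0.660 to 1.08 of the vehicle level. It was -0.06 without replicate 5. Means at 0.05, 0.55, 5.50 and 55 mg/kg were 13.07, 12.96, 12.98 and 12.90, all within 0.19 of the vehicle mean of 12.89.

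Tat, whose product starts tyrosine breakdown, had a 550 mg/kg range of 8.87 to 9.66 with a median of 9.35, against 10.02, 9.73, 10.42, 9.28 and 9.25 in vehicle. All 6 arrays at 550 mg/kg were below the vehicle mean of 9.74, but the groups overlapped. The difference of -0.42 ± 0.35 did not pass (limma adjusted p = 0.81), with a 95% interval from 0.453 to 1.23 of the vehicle level. Without vehicle replicate 3, the highest vehicle array, the difference was -0.25. The SD of Tat was 0.32 at 550 mg/kg and 0.79 at 55 mg/kg, where it ran from 8.28 to 10.40.

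The coactivator gene Ppargc1a had a level at percentile 48.5 of all probe sets. It ran from 4.77 through 4.83 to 5.11 at 550 mg/kg, against 5.51, 4.97, 5.14, 4.89 and 5.16 in vehicle. All 6 arrays at 550 mg/kg were below the vehicle mean, and 4 of them were below every vehicle array. The difference was -0.25 ± 0.17 (limma adjusted p = 0.732), and -0.16 without vehicle replicate 1. At 0.05 mg/kg it was as large, -0.33 ± 0.17 (limma adjusted p = 0.822), while at the 3 doses between, the differences ran from -0.06 to -0.02. The 2 other probe sets of the gene, dimmer still, differed by -0.28 ± 0.21 and 0.02 ± 0.19 at 550 mg/kg. There the 3 did not share a sign. At 0.05 mg/kg all 3 were below vehicle. The first of the other 2 differed by -0.55 ± 0.21 (limma adjusted p = 0.801, unadjusted p = 0.0133) and the second by -0.24 ± 0.19. At 0.55, 5.50 and 55 mg/kg the first differed by -0.28, -0.18 and -0.38, and the second by -0.16, 0.06 and -0.12.

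Igfbp1 had the largest difference from vehicle of the 8 members at each of the 4 lower doses, where its mean was above vehicle, and none of these passed. Its group means from vehicle to 550 mg/kg were 9.95, 10.35, 10.33, 10.55, 10.70 and 9.78, with SDs of 0.48, 0.95, 0.53, 0.64, 0.75 and 0.64. At 55 mg/kg it ran from 9.31 through 10.96 to 11.46, against 10.40, 9.24, 9.72, 10.21 and 10.20 in vehicle. Of the 6 arrays at 55 mg/kg, 5 were above every vehicle array and replicate 1 was near the low end. The difference of 0.75 ± 0.39, or 1.68-fold, did not pass (limma adjusted p = 0.999, unadjusted p = 0.061). At 550 mg/kg it ran from 8.97 through 9.81 to 10.57, and the difference from vehicle was -0.17 ± 0.39 (limma adjusted p = 0.948; 95% interval 0.514 to 1.53 of the vehicle level). It lay between -0.35 without vehicle replicate 2 and -0.01 without 550 mg/kg replicate 5, and leaving out vehicle replicate 1, 4 or 5 or 550 mg/kg replicate 1, 2 or 4 also moved it by over 1.5 times.

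Irs2, the insulin receptor adaptor, had means from vehicle to 550 mg/kg of 6.39, 6.58, 6.48, 6.83, 6.54 and 6.65. It ran from 5.67 through 6.69 to 7.53 at 550 mg/kg, against 6.51, 6.27, 6.02, 6.57 and 6.59 in vehicle. At the top dose 3 arrays were above every vehicle array and 1, replicate 5, was below every one. The difference was 0.26 ± 0.32 (limma adjusted p = 0.893). It was 0.08 without 550 mg/kg replicate 3, 0.45 without 550 mg/kg replicate 5 and 0.16 without vehicle replicate 3. Its SD was 0.46 to 0.70 in the 5 dosed groups and 0.25 in vehicle, a difference in spread that was not tested.

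The fed-type member Pklr and the transporter Slc2a2 had their lowest means at 5.50 and 55 mg/kg. Pklr had means from vehicle to 550 mg/kg of 9.38, 9.33, 9.32, 9.04, 9.04 and 9.26. It ran from 8.72 through 9.07 to 9.43 at 55 mg/kg, against 9.30, 9.29, 9.33, 9.20 and 9.78 in vehicle, and 5 of the 6 arrays at 55 mg/kg were below every vehicle array. The differences were -0.34 ± 0.18 at both 5.50 and 55 mg/kg (limma adjusted p = 0.998 and 0.999). At 550 mg/kg Pklr ran from 8.62 through 9.27 to 9.63, and its difference was -0.13 ± 0.18 (limma adjusted p = 0.91), or -0.02 without vehicle replicate 5 and 0.0032 without 550 mg/kg replicate 1. A dimmer probe set of the gene, which tracked the main one within groups (r = 0.95), differed by -0.26 ± 0.24 at 55 mg/kg and by 0.02 ± 0.24 at 550 mg/kg. Slc2a2 differed by -0.16 ± 0.09 at 55 mg/kg (limma adjusted p = 0.999). At 550 mg/kg its difference was -0.01 ± 0.09, with 6 arrays between 11.61 and 11.78, against 11.67, 11.74, 11.67, 11.56 and 11.91 in vehicle. That interval ran from 0.872 to 1.14 of the vehicle level, the narrowest after that of Fbp1.

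The highest dose was also set against the one below it. Of 8 members, 0 passed at 550 against 55 mg/kg, where 0.686% of all probe sets did, and 2 had an unadjusted p under 0.05, against 9.43% of all probe sets. The 2 were Igfbp1 and Fbp1. In no member were the groups free of overlap, which 0.329% of all probe sets were downward and 0.825% upward. Igfbp1 was at 0.527 of its 55 mg/kg level (-0.92 ± 0.37, limma adjusted p = 0.361, 95% interval 0.313 to 0.886), with all 6 arrays at 550 mg/kg below the 55 mg/kg mean. Fbp1 differed by -0.12 ± 0.05 (limma adjusted p = 0.321). Pklr and Slc2a2 differed the other way, by 0.21 ± 0.17 and 0.16 ± 0.09 (limma adjusted p = 0.775 and 0.63). This comparison shares its 550 mg/kg arrays with the one against vehicle.

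**Figure D2:**
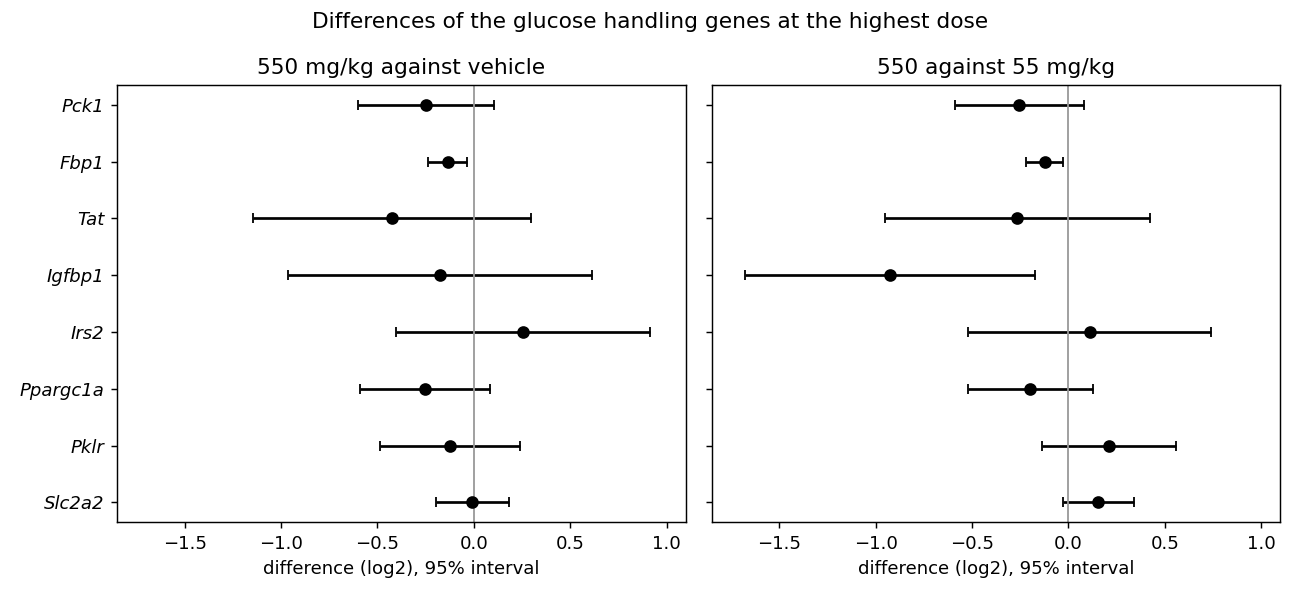
Log2 differences (horizontal axes) of the 8 genes at 550 mg/kg against vehicle (left) and at 550 against 55 mg/kg (right), with 95% intervals from limma. The interval of Fbp1 lies below 0 in both panels and that of Igfbp1 in the right panel, before adjustment over all probe sets.

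A slope over dose rank, from vehicle to 550 mg/kg, was called for 0 of 8 members, where 0.171% of all probe sets were called (0.0966% upward, 0.0741% downward), and 1 member had an unadjusted p under 0.05, against 9.42% of all probe sets. That member was Fbp1, with a slope of -0.03 ± 0.01 log2 units per dose step (limma adjusted p = 0.171, unadjusted p = 0.00216). Without the 550 mg/kg group its slope was -0.01 (limma adjusted p = 1). The slopes of Pck1 and Tat were -0.05 ± 0.03 and -0.09 ± 0.06 (limma adjusted p = 0.586 and 0.653).

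The wider pathway was read in the same fit from lists of genes that are not members. Of 13 other measured gluconeogenesis enzymes and transporters, 0 passed at 550 mg/kg against vehicle and 11 had a positive difference, with a median of 0.09 beside 0.002 over all probe sets. The list includes Gpi, Tpi1, Pgk1, Pgam1 and Eno1, enzymes shared with glycolysis, so its signs cannot tell gluconeogenesis from glycolysis. The member of that list with the smallest p was Pck2, the mitochondrial carboxykinase, at 0.32 ± 0.08 (limma adjusted p = 0.0721). Of 19 other fasting-type genes, 0 passed and 12 had a negative difference (median -0.02). The lactate and ketone transporter Slc16a1 had the smallest p, at -0.37 ± 0.11 (limma adjusted p = 0.173). Pdk4, the kinase that shuts off pyruvate dehydrogenase in fasting, differed by 0.14 ± 0.36 (limma adjusted p = 0.956).

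Of 16 other fed-type genes, 0 passed against vehicle and 11 had a positive difference (median 0.06). The malic enzyme gene Me1 had the smallest p, at 0.56 ± 0.15 (limma adjusted p = 0.0797). Of 22 insulin and glucagon signalling genes 0 passed and 16 had a negative difference (median -0.05), and Igfbp2, a relative of Igfbp1, differed by -1.19 ± 0.36 (limma adjusted p = 0.176). None of 13 glycolysis genes, 11 glycogen genes, 16 amino acid catabolism genes and 12 glucocorticoid response genes passed, with medians of 0.03, -0.05, 0.01 and -0.10. Their smallest p values belonged to Hk1 (0.14 ± 0.07), Phkg2 (-0.14 ± 0.05), Gpt2 (0.43 ± 0.13) and Klf9 (-0.36 ± 0.21), with limma adjusted p of 0.553, 0.393, 0.177 and 0.672. Gpt2 encodes an alanine aminotransferase, which hands alanine carbon to gluconeogenesis.

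At 550 against 55 mg/kg 2 of the 16 fed-type genes and 2 of the 11 glycogen genes rose, and none of either list fell, where 0.577% of all probe sets rose and 0.11% fell. The other 6 lists had 0 calls, and the fed-type median was 0.30 beside -0.003 over all probe sets. These 4 genes are named because their count was small, after their values were seen. Tkt, a transketolase of the pentose phosphate pathway, ran from 10.69 through 10.99 to 11.06 at 550 mg/kg and from 10.49 through 10.59 to 10.65 at 55 mg/kg (0.36 ± 0.07, limma adjusted p = 0.00793). The groups did not overlap, and 0.825% of all probe sets were likewise higher without overlap. Me1, which makes NADPH for fat synthesis, rose by 0.57 ± 0.14 (limma adjusted p = 0.0465). Gyg1, the protein primer of glycogen, rose by 0.27 ± 0.07 and Pgm1, which links glucose phosphates to glycogen, by 0.23 ± 0.06 (limma adjusted p = 0.0453 and 0.0389). The call of Tkt held without any 1 of the 12 arrays, while those of Me1, Gyg1 and Pgm1 were lost without single arrays 7, 9 and 10 times of 12 (highest adjusted p 0.155, 0.136 and 0.108). Against vehicle at 550 mg/kg Tkt differed by 0.24 ± 0.08 without passing (limma adjusted p = 0.209). At 55 mg/kg against vehicle 13 of the 16 fed-type and all 11 glycogen genes had negative differences (medians -0.13 and -0.09), with 0 calls. Means in vehicle, at 55 and at 550 mg/kg were 10.25, 10.10 and 10.33 for Pgm1 and 8.32, 8.22 and 8.49 for Gyg1. For Tkt they were 10.70, 10.58 and 10.94, and for Me1 9.41, 9.41 and 9.98. How far the calls rest on low 55 mg/kg values was not tested.

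The members differed strongly in how much they varied between arrays of the same dose. The pooled within-group SD was 0.69 for Igfbp1, 0.63 for Tat and 0.58 for Irs2, beside a median of 0.14 over all probe sets. These 3 lay at percentiles 99.6, 99.4 and 99.2 of all probe sets for spread. Pklr (0.31), Pck1 (0.30) and Ppargc1a (0.29) lay at percentiles 96.2, 95.8 and 95.4, and Slc2a2 (0.16) at percentile 66.3. Fbp1 stood at the other end, with an SD of 0.07 at percentile 1.86. Across all 35 arrays Igfbp1 spanned 2.56 log2 units and Fbp1 0.49.

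Within dose groups some fasting-type genes ran together and others ran opposite. After subtracting each group's mean, the 28 pairs among the 8 members gave 3 with an adjusted permutation p under 0.05, of which 2 were positive and 1 negative. Igfbp1 and Irs2 rose and fell together (r = 0.74, permutation p = 1e-05, adjusted over 28 pairs 0.00028; rho = 0.75, permutation p = 1e-05, adjusted 0.00028), in 6 of 6 groups. The p of 1e-05 is the smallest that the 100000 resamples can give. Tat ran opposite to Irs2 (r = -0.66, permutation p = 5e-05, adjusted 0.000467; rho = -0.67, permutation p = 0.00011, adjusted 0.00103), again in 6 of 6 groups, although in the 550 mg/kg group r was near 0 at -0.09. Leaving out the 2 arrays farthest from the median of the first-named gene gave r = 0.72 for Igfbp1 and Irs2 and r = -0.71 for Tat and Irs2.

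At 0.05 mg/kg, replicate 1 had the highest Irs2 of all 35 arrays (7.87) with a low Tat (9.01), and replicate 3 had low Irs2 (5.98) with high Tat (10.36). At 5.50 mg/kg, replicates 1 and 3 had Irs2 of 7.64 and 7.47 and Tat of 8.66 and 8.78, while replicate 5 had Irs2 of 5.80 and Tat of 10.37. Igfbp1 in the same 3 arrays at 5.50 mg/kg was 11.47, 11.02 and 9.66, following Irs2.

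The third pair was Pklr and Slc2a2 (r = 0.68, permutation p = 2e-05, adjusted 0.00028; rho = 0.71, permutation p = 4e-05, adjusted 0.00056), positive in 6 of 6 groups and at r = 0.59 without the 2 arrays farthest from the median of Pklr. The other 25 pairs did not pass by r, the largest in size being Igfbp1 with Ppargc1a (r = 0.43, permutation p = 0.0346, adjusted 0.161). Pck1 and Fbp1 passed by rho alone (rho = 0.51, permutation p = 0.00626, adjusted 0.0438; r = 0.42, permutation p = 0.0629, adjusted 0.193). The r of the fed-type Pklr with the fasting-type members passed for none of them, running from -0.14 (Fbp1) to 0.23 (Tat).

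**Figure D3:**
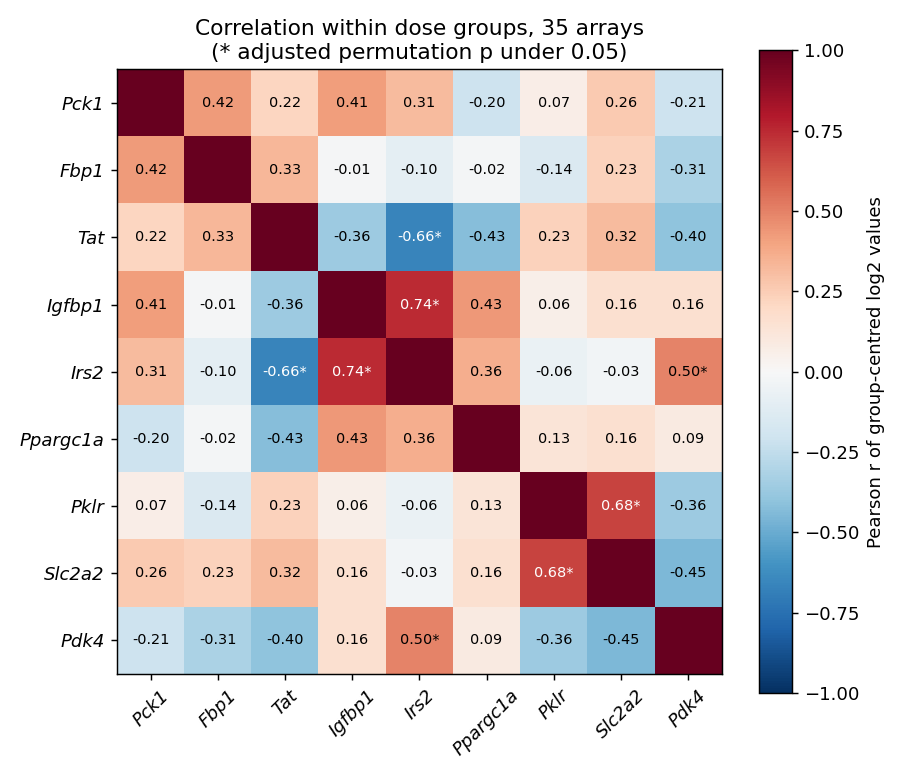
Pearson r of group-centred log2 values over 35 arrays for the 8 genes and Pdk4, coloured from -1 (blue) to 1 (red). Asterisks mark Igfbp1 with Irs2 (0.74), Pklr with Slc2a2 (0.68), Tat with Irs2 (-0.66) and Irs2 with Pdk4 (0.50), adjusted over 28 pairs of members or 8 relations with Pdk4.

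**Figure D4:**
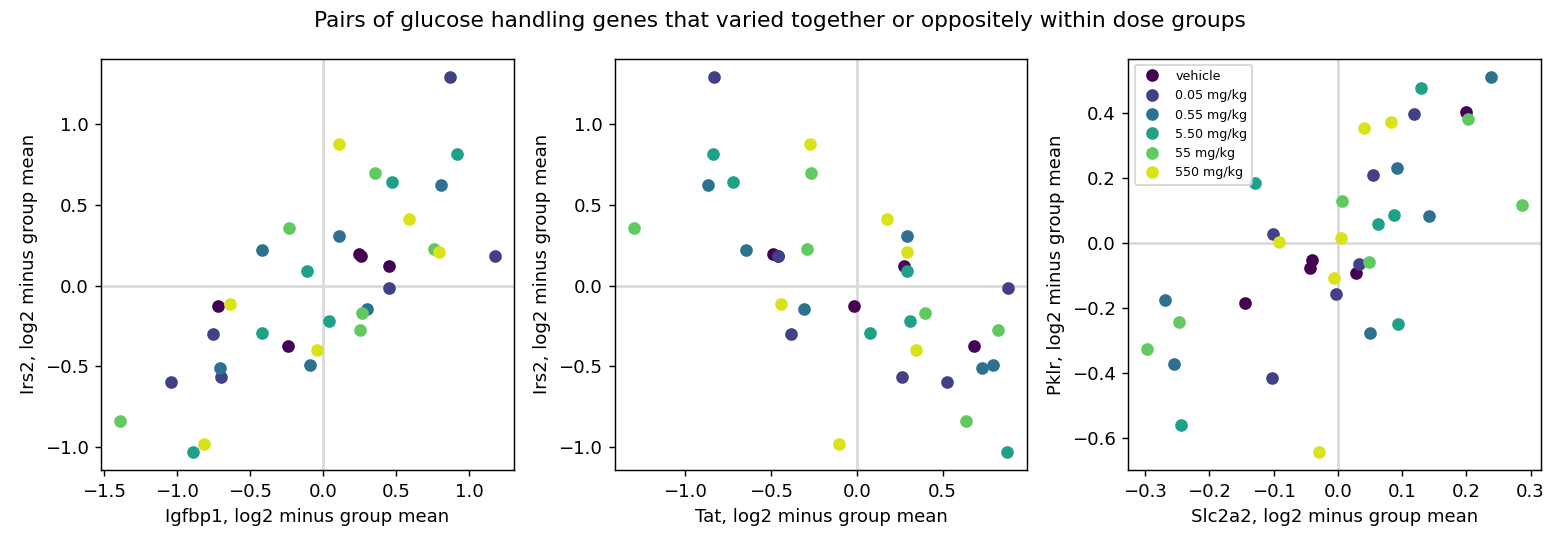
Group-centred log2 values of 3 pairs of genes, 1 point per array, coloured by dose group. Irs2 (vertical) rises with Igfbp1 and falls with Tat (horizontal, left and middle panels), and Pklr rises with Slc2a2 (right panel).

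Pdk4, a fasting-type gene outside the members, was set against each of the 8. Its relation with Irs2 passed by r (r = 0.50, permutation p = 0.00532, adjusted over 8 relations 0.0426) but not by rho (0.48, permutation p = 0.00816, adjusted 0.0653), and r was 0.41 without the 2 arrays farthest from the median of the member. That call was lost without any 1 of 11 arrays (adjusted permutation p up to 0.0943). The relations of Pdk4 with Slc2a2, Tat and Pklr were -0.45, -0.40 and -0.36 (permutation p = 0.0157, 0.032 and 0.0459, adjusted 0.0629, 0.0854 and 0.0918). Pck1, Fbp1, Igfbp1 and Ppargc1a had r of -0.21, -0.31, 0.16 and 0.09 with it.

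As a description, each member was also set against 14209 other genes by r over the same 35 group-centred arrays. Pklr was most like Acly (0.88) and Acaca (0.85), which encode the first enzymes of fat synthesis from citrate, and 11 of 16 fed-type genes had r above 0.5 with it, while 1.44% of all genes did. Slc2a2 was most like Sepsecs (0.90), an enzyme of selenocysteine synthesis, and Acaca (0.81), with 8 of 16 fed-type genes above 0.5 (2.55% of all genes). For Pck1, Fbp1, Igfbp1, Irs2 and Ppargc1a none of the 16 was above 0.5, and for Tat 1 was, the lipid synthesis regulator Srebf1 (0.63). The lowest r of both Pklr and Slc2a2 was with the T cell gene Cd8a (-0.73 and -0.74).

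Igfbp1 had its lowest r, -0.75, with Angptl8, a hormone gene of the liver that rises on feeding, and its highest with B4galnt1 (0.74) and Tbc1d10a (0.73). Irs2 was most like the kinase gene Tec (0.82) and Gucd1 (0.76) and least like Utp3 (-0.86), which acts in ribosome assembly. Tat was most like Nanp (0.87) and Inhbe (0.86), which encodes an activin subunit made in liver, and least like Arrdc3 (-0.83). It had the most company of the 8, with 6.65% of all genes above 0.5. Pck1 was most like Zfp41 (0.78) and the cyclic AMP phosphodiesterase gene Pde4b (0.70) and least like Klf10 (-0.67). Fbp1 had Mid2 (0.70) and Pfas (0.66) at the top and Irs3 (-0.73) at the bottom. For Ppargc1a these were Rpl28 (0.67), Junb (0.66) and Dpf2 (-0.74). The Rpl28 probe set was dim, with a mean of 3.12 at percentile 13.3 of all probe sets. Against the 19 fasting-type genes outside the members no gene of the 8 had a median r above 0.21, and Pck1, at that median, had its lowest r with Fgf21 (-0.59).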

How the data were processed

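Liver RNA was hybridised to single-colour Affymetrix 3' arrays, per the labels' protocols. The deposited values are log2 expression. The submitters' processing notes name RMA and affy as the tools with which the authors computed them. For versions, chip definition and filters, nothing is stated in the sources used here. RMA by its usual definition makes array distributions alike, so a change shared by most genes cannot be seen, and folds of weakly hybridised genes come out smaller. Precision depends on the array number and on each gene's spread: for a difference at 550 mg/kg the median 95% half-width over all probe sets was 0.17 on the log2 scale, while the members' standard errors ran from 0.05 (Fbp1) to 0.39 (Igfbp1).

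Of 31099 probe sets, 57 controls were left out. Symbols came from a platform annotation (20826 probe sets with 1 symbol, 436 with several, 9780 with none), of which 20758 matched the RefSeq table of GRCr8 by Entrez identifier. Groups came from sample titles. R 4.3.3 and limma 3.58.1 fitted 1 mean per group (or a slope on dose rank) over 35 arrays. Correlations used Python 3.11.15, numpy 2.4.6 and 100000 permutations within dose groups. The comparison of each dose with vehicle at a 5% false discovery rate follows the design text, whose own R package was not used. In simulated data at 550 mg/kg against vehicle with 31042 probe sets, 87 of 100 changes of 0.5 and 100 of 100 changes of 1 on the log2 scale were recovered. These shares are over probe sets of all spreads. They were not computed at the spread of Igfbp1, Tat, Irs2, Pklr, Pck1 or Ppargc1a, each at percentile 95.4 or above for spread.

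Every member was named, with up to 4 called genes of each list or else the one with the smallest p, Pdk4, and for each member the 2 genes most like it and the 1 least like it. Members and lists were chosen with earlier results of these data known. G6pc1 had no probe set with 1 symbol, so 28 of 36 planned pairs were computed. One planned set of relations is not reported here. Replicate numbers were checked for pairing: of 85 same-number array pairs across groups, 17 had correlated deviations above 0.1 (median -0.01, range -0.31 to 0.27). Pairs of unlike number were not computed beside them, so the check cannot show whether same-number arrays shared handling. The numbers were taken only to name arrays. Alternatives changed the probe set filter, normalization, variance model, arrays fitted, array weights, block, single arrays and probe sets per gene.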

Additional observations from a re-analysis of the deposited data

Results flagged for a closer look

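Of 48 sets of values, 1 for each of 8 genes in each of 6 groups, 3 held an array far from the others of its group, by a ratio of the gap to the nearest array over the group's whole range that exceeded Dixon's 95% critical value for the group's size. Chance gives about 1 such set in 20. Pck1 at 0.05 mg/kg had replicate 6 at 12.54, with the next array at 13.00 (ratio 0.643). Fbp1 at 550 mg/kg had replicate 4 at 12.30, with the next at 12.50 (ratio 0.717). Pklr in vehicle had replicate 5 at 9.78, with the next at 9.33 (ratio 0.775).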

How the results depend on the processing

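The count of members called stayed at 0 of 8 in all 7 comparisons under every alternative run, including each array left out. Differences of single members were rerun at 550 mg/kg against vehicle (all 8), at 550 against 55 mg/kg (Fbp1 and Igfbp1) and for the slope of Fbp1, and among these the sign changed for Slc2a2 and Pklr at 550 mg/kg against vehicle: Slc2a2 (-0.01) was 0.018 with array weights, 0.030 with the replicate block and -0.043 to 0.043 without single arrays, and Pklr (-0.13) was -0.20 to 0.0032 without single arrays, the highest without 550 mg/kg replicate 1. The replicate block changed no call of a member. The 3 correlated pairs kept their calls in all 5 other settings and 35 single-array omissions, with 3 to 4 pairs called without single arrays and 6 when group means were not subtracted. Of the 8 relations with Pdk4, 1 was called. It was 5 without subtracting group means, 0 with Spearman's rho, 0 with the replicate block and 0 to 3 without single arrays. Counts over all probe sets moved more: at 550 mg/kg against vehicle 155 probe sets were called, 41 with only the 2 groups fitted and 77, 82 or 88 without vehicle replicate 3, vehicle replicate 1 or 550 mg/kg replicate 2. At 550 against 55 mg/kg 213 were called, 76 with only the 2 groups, 327 with array weights, and 123 or 137 without 55 mg/kg replicate 1 or 4. The slope on dose called 53, 2 without the 550 mg/kg group, 93 to 115 under 4 other settings and 20 to 104 without single arrays. Me1 and Gyg1 lost their calls at 550 against 55 mg/kg with array medians subtracted (adjusted p = 0.0591 and 0.0708), with the replicate block (0.0556 and 0.0606) and with only the 2 groups fitted (0.17 and 0.135). Pgm1 lost it with medians subtracted (0.063) and with only the 2 groups (0.119), and Me1 also with trend and robust variance settings (0.0553). Fitting fewer arrays leaves fewer degrees of freedom. The causes of the other shifts were not tested.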

Other observations

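Array by array, the 6 fasting-type genes (Pck1, Fbp1, Tat, Igfbp1, Irs2 and Ppargc1a) were counted where they lay above their medians over the 35 arrays, together with the fed-type Pklr. All 6 were above in 1 array, 0.55 mg/kg replicate 2, where Pklr was above its median too. None was above in 2 arrays, 5.50 mg/kg replicate 4 and 550 mg/kg replicate 4, with Pklr at its median in 5.50 mg/kg replicate 4 and above it in 550 mg/kg replicate 4. The median array at 550 mg/kg had 1 of the 6 above, against 3 of the 6 in vehicle, and at the doses between it was 3 to 3.5. At 550 mg/kg replicate 5 had the lowest Pck1, Igfbp1 and Irs2 of all 35 arrays, at 11.71, 8.97 and 5.67, while its Pklr (9.27) and Slc2a2 (11.71) were in the vehicle range. In the same array Ppargc1a (5.11) was above its median over the 35 arrays. Tat (9.22) and Fbp1 (12.53) were there at ranks 9 and 5 from the lowest. Replicate 4 had the second lowest Pck1 and Igfbp1 (12.24 and 9.14), with Irs2 (6.53) at rank 16 from the lowest. No test was run on these counts.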
